A study of Mus musculus with 24 samples.

Results

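Bcl6 and the chromatin that lies upstream of it were examined in germinal center (GC) B cells by ATAC-seq, an assay that uses a transposase to cut accessible DNA and tag it for sequencing. Members were all consensus peaks that overlap the Bcl6 gene (ENSMUSG00000022508.5, minus strand, chr16:23965052-23988852 on mm10) or the DNA from 20 kb past its end to 300 kb upstream of its transcription start site (TSS). This window, chr16:23945052-24288852, held 46 of the 65483 peaks of the study. Spleen GC B cells were sorted 10 days after immunization with sheep red blood cells (SRBC), and 1 library was made per mouse. There were 4 mice of each of WT, C and K and 5 of CK. All mice, WT included, carried 1 copy of Cg1Cre, in which the Cγ1 immunoglobulin locus drives Cre in activated B cells. C mice also carried Crebbp fl/+, K mice carried Kmt2d fl/+, and CK mice carried both, so that Cre could remove 1 allele of each gene named. The mice were described as 8-week-old females on a C57BL/6J background. The comparisons ask how loss of 1 allele of Crebbp, of Kmt2d or of both changes the accessibility of this locus. Distances are in kb from the TSS to the midpoint of a peak, and levels are CPM, counts of fragments scaled to the TMM-normalized library size. At the edges of the window, the outermost members (chr16:23953317-23954103 and chr16:24283188-24284315) had 2.11 and 2.87 CPM in WT and 2.01 and 2.83 in CK. The nearest peaks outside it (chr16:23927610-23928083 and chr16:24296377-24298899) had 0.663 and 13.7 CPM in WT and 1.03 and 13.8 in CK.

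BCL6 is a zinc finger repressor that B cells need to form GCs, where it holds down genes of the DNA damage response, of activation and of plasma cell fate. It recruits corepressors such as NCOR1 and BCOR. CREBBP is an acetyltransferase that marks active enhancers and opposes BCL6 at shared targets, and KMT2D places methyl groups on histone H3 at enhancers. A distal enhancer region upstream of BCL6 is known in human GC B cells.

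Sequences are shown first for the elements to which the results return, namely the promoter and 3 of the upstream peaks that were lower in CK. Letters come from GRCm38 (the assembly behind mm10), and capitals mark matches to the motifs searched. The 250 bases before the TSS (chr16:23988853-23989102, minus strand, equal to the RefSeq GRCm38.p6 promoter entry) held 1 match to the STAT pattern TTCNNNGAA.
Bcl6 promoter: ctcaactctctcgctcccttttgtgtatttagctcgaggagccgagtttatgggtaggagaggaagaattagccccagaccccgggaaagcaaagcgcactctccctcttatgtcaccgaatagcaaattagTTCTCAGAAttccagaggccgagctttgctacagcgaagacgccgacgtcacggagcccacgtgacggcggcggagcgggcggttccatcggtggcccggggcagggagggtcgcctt
The first exon, which is untranslated in Bcl6, held 4 further matches to that pattern within 73 bases, and only short stretches of it are given, on the strand of the gene. Of these 4, 1 also matched the BCL6 pattern TTCCTNGAA. BCL6 is known to bind its own first exon and repress its own gene. Of the 65483 peaks, 2 (0.00305%) held 4 or more STAT matches in their central 300 bases, a threshold chosen after the 4 were seen.
Exon 1 nearest the TSS (chr16:23988643-23988672, minus strand): cgcagctcaaaTTCCGAGAAttgagctctg
Exon 1 pair (chr16:23988612-23988641, minus strand): tgaTTCTTAGAActggggTTCTTAGAAgtg
Exon 1 BCL6 match (chr16:23988579-23988608, minus strand): atgcaagaagtTTCTAGGAAaggccggaca
The central 300 bases of 3 upstream peaks follow, on the plus strand. Capitals mark an AP-1 match (TGANTCA), 2 E-boxes (CAGGTG, read by E-proteins) and a RUNX match (TGTGGTT) at 219.4 kb, an E-box at 146.9 kb, and an octamer (ATGCAAAT, read by OCT factors) at 80.0 kb. Those at 219.4 and 146.9 kb are the peaks of the window with the highest WT level per kb, and the last is the member that also differed between CK and C.
219.4 kb (chr16:24208107-24208406): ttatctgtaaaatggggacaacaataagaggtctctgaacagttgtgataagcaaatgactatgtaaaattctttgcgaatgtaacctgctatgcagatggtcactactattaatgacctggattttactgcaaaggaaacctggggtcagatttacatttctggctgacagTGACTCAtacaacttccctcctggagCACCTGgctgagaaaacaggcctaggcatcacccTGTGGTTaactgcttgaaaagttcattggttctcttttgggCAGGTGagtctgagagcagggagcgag
146.9 kb (chr16:24135615-24135914): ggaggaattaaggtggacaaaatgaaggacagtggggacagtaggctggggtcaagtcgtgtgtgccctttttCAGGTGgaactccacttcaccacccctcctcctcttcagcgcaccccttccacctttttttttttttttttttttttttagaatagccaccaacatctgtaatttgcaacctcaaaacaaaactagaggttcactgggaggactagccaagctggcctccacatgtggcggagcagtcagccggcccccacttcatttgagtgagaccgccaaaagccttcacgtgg
80.0 kb (chr16:24068720-24069019): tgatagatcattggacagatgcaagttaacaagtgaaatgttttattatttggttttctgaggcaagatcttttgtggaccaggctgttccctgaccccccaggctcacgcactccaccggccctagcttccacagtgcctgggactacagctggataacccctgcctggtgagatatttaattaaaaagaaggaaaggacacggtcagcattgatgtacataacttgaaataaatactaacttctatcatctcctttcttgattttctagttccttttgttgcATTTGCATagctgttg

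The libraries held 17483706 to 21857738 fragments in peaks, and members held between 6 and 2709 fragments per library. Promoter peaks (within 1000 bp of a TSS) were present for 6 of 6 B-lineage markers and 6 of 6 GC B markers, and for 2 of 6 T cell markers, where Cd3e, Cd3g, Cd4 and Cd8a had none. The 3 of 5 myeloid markers with a peak had a median of 2.32 CPM in WT. Summed over the GC B marker promoters, WT mice lay between 419 and 478 CPM, C mice between 385 and 433, K mice between 410.1 and 432, and CK mice between 362 and 430. The summed promoters of the naive B markers (4 of 4 with a peak) lay between 108 and 127 CPM in WT, between 92.0 and 109 in K and between 90.1 and 109 in CK. In both K and CK, 1 of these 4 peaks was called lower than in WT (edgeR adjusted p under 0.01), against 0.828% and 3.30% of all peaks. WT and CK mice lay between 56.6 and 59.6 and between 46.6 and 53.7 CPM for the T cell markers with a peak (Cd5 and Lck), between 7.70 and 9.77 and between 7.27 and 10.3 for the myeloid markers, between 471 and 520.2 and between 444.5 and 484 for the B-lineage markers, and between 220.3 and 234 and between 230.3 and 243 for the 4 plasma cell markers. By the same test Cd5 was called lower in CK (from 30.6 to 21.8 CPM, adjusted p = 0.000801). Lck was not called (27.6 and 28.8 CPM, adjusted p = 0.591). No peak of the B-lineage, GC B, myeloid or plasma cell markers was called in CK. Several of these levels moved with genotype alongside the Bcl6 results below, and their part in those results was not tested. Signal at 11 Y chromosome peaks was present in 9 of the 17 libraries (2 WT, 2 C, 3 K, 2 CK; at least 75.4 CPM) and near 0 in the other 8, which goes against the description of all mice as female. WT replicate 4 was the highest WT mouse over the summed window (993 CPM, against 846 to 881 in the others). Results are given with and without this mouse. Replicate 4 was also the highest C and the highest K mouse over the summed window (916 and 890.5 CPM). In CK it was not the highest (795 CPM, with CK replicate 5 at 847). Over all peaks, libraries of the same replicate number were slightly more alike (median r of deviations 0.1, against -0.00867 for other pairs). The labels do not say what the numbers share, and their part in the levels of this window was not tested.

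In WT, most of the summed signal of the window lay far upstream of the gene, where most of its peak length also lay. The 46 peaks summed to 898 ± 64.8 CPM (SD, n = 4), and the promoter peak held 3.54% of this. The 14 peaks from 100 to 200 kb upstream held 50.7% and the 11 peaks from 200 to 300 kb upstream held 24.0%. Peak length was 1518 bp at the promoter and 22289 and 15512 bp in these 2 segments, of 60236 bp in all. Taken per kb of peak, the 2 segments had 20.4 and 13.9 CPM and the promoter 20.9. Per kb of peak, the most accessible member lay at 219.4 kb, with 49.4 CPM per kb in WT, rank 1713 of 65483 peaks (the top 2.62%). It was followed by the peaks at 146.9 kb (38.5 CPM per kb), 216.9 kb (37.0) and 162.9 kb (35.4). The promoter peak had 20.9 CPM per kb, close to the intronic peak at chr16:23983905-23987039 (19.9). In the near upstream segment the 2 highest were at 87.8 kb (16.7 CPM per kb, over an exon of the lincRNA gene Gm46545) and 4.8 kb (15.95, intergenic), and downstream of the gene they were at chr16:23958564-23959366 (18.5) and chr16:23962471-23964789 (7.75). The lowest member had 1.07 CPM per kb.

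**Figure D1:**
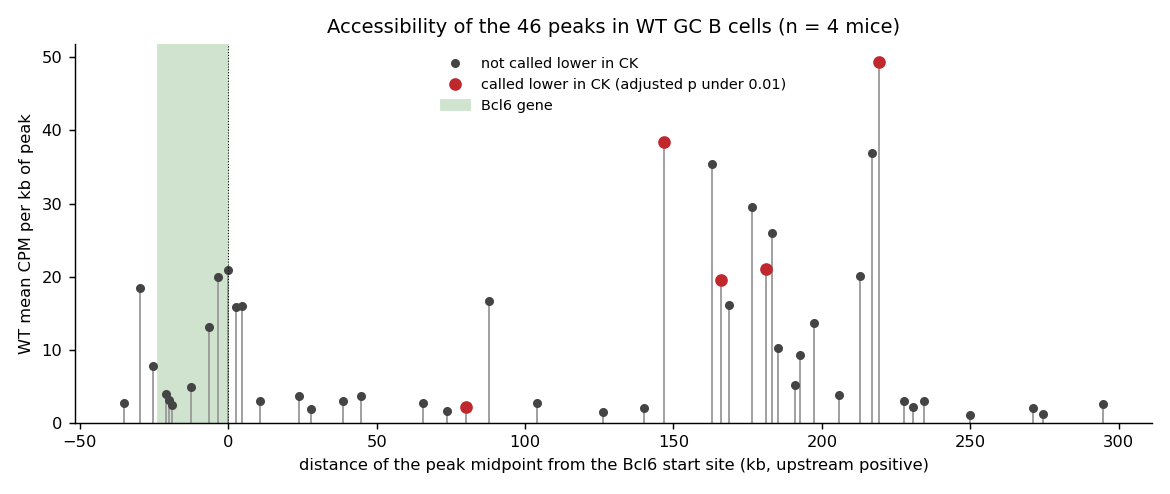
Mean WT accessibility of each of the 46 peaks (CPM per kb of peak, n = 4 mice) against the distance of its midpoint from the Bcl6 TSS in kb, upstream positive. The shaded span is the gene, and red points are the 5 peaks called lower in CK. The tallest points lie between 146.9 and 219.4 kb upstream.

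Distal peaks lying within 12.5 kb of each other were joined to rank the region against others. A joined region of 17 peaks, chr16:24150676-24223565, 161.8 to 234.7 kb upstream of the TSS, had rank 11 by summed WT level among 22668 joined regions. It held 58.8% of the signal of the window in WT. Its sum was 500.02, 508, 511 and 592 CPM in the 4 WT mice, and 468, 461, 499 and 533 CPM in the C mice. The K mice had 462, 463, 490.5 and 523 CPM, and the CK mice had 470.4, 455, 435, 451 and 492 CPM. The highest CK mouse (492 CPM) lay just below the lowest WT mouse (500.02 CPM), while 1 C mouse and 1 K mouse reached into the range of WT. The region was picked as the 1 with the largest WT sum in the window. How many of all joined regions show a like gap was not counted, so this is a description. As a share of the WT mean, C had 92.9%, K 91.8% and CK 87.3%. Without WT replicate 4, the highest mouse of this region, these shares were 96.8%, 95.7% and 90.99%. The 146.9 kb peak lies outside this region, in a joined region of 2 peaks ranked 632. In GENCODE M21 the distal peaks from 140.0 kb on fall in introns of AC169509.1, a transcribed processed pseudogene, and some also overlap the lncRNA genes Gm32126 or Gm31814. No protein-coding gene other than Bcl6 and Gm37419, a short model on the opposite strand that overlaps the first exon of Bcl6, lies in the window.

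The Bcl6 promoter peak (chr16:23987947-23989464) did not pass the test in any comparison. WT mice had 34.7, 32.5, 29.7 and 30.1 CPM at this peak and C mice had 28.0, 26.8, 27.0 and 27.2 CPM. K mice had 36.2, 34.6, 32.7 and 32.3 CPM and CK mice had 35.6, 27.8, 28.8, 33.4 and 35.95 CPM. All 4 C mice lay below all WT and all K mice, and the CK mice spanned nearly the whole range. How many of all peaks show such a gap for C was not counted, so this is a description. In order of their means the genotypes were K (34.0 ± 1.81, SD, n = 4), CK (32.3 ± 3.801, n = 5), WT (31.8 ± 2.35, n = 4) and C (27.3 ± 0.537, n = 4). The neighbors K and CK, and CK and WT, differed by less than their spread, and C lay below WT by more than either SD. The fitted log2 difference from WT was −0.22 ± 0.07 (SE) in C (edgeR quasi-likelihood test, Benjamini-Hochberg adjusted p = 0.304, unadjusted p = 0.00695). For K it was 0.10 ± 0.07 (adjusted p = 0.498), and for CK 0.03 ± 0.07 (adjusted p = 0.856). K against C gave 0.32 ± 0.07 (adjusted p = 0.0183, and 0.00464 by DESeq2) and CK against C gave 0.25 ± 0.07 (adjusted p = 0.0371). Because the cells were measured in bulk, fewer cells with an open site and a less open site per cell cannot be told apart, here and at every peak below.

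In CK, 5 of the 46 peaks were lower than in WT and none was higher at an adjusted p under 0.01, against 3.30% of all 65483 peaks called lower and 3.54% called higher. All 5 lie upstream of the TSS, as do 36 of the 46 members, and 4 of the 5 lie between 146.9 and 219.4 kb. By segment, 1 of 11 peaks was called lower within 100 kb upstream, 3 of 14 from 100 to 200 kb and 1 of 11 from 200 to 300 kb. DESeq2 also called 5, of which 4 were shared, and in unadjusted terms 16 members (34.8%) had p under 0.05, 12 of them lower (26.1%), against 28.9% of all peaks, and 14.2% lower. The count depended on single mice, and so did that over all peaks. Without WT replicate 4, 1 member was called, the peak at 219.4 kb, and 1.47% of all peaks were called lower. Without WT replicate 3, 2 members were called (2.03% of all peaks), and without C replicate 1, K replicate 3 or any of CK replicates 1 to 4, 3 members were called (2.32% to 3.16% of all peaks). The median log2 difference of the members was −0.08, against 0.00 over all peaks, and 30 of 46 were below 0. Of all 5596 peaks more than 2500 bp from a coding TSS and of 20 CPM or more, 10.8% were called lower in CK, and of the 12 members that met both criteria 3 were. Of all 14822 peaks of 20 CPM or more at any distance, 4.69% were called lower, and of the 14 such members 3 were. Counts this small are a description of the members.

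The peak at 219.4 kb (chr16:24207132-24209381, over an exon of Gm31814) was the most accessible per kb in WT. It had 107.0, 106.5, 110.2 and 120.5 CPM in WT and 97.0, 88.0, 81.0, 95.6 and 96.7 in CK. Every CK mouse lay below every WT mouse. C had 98.0, 96.7, 100.5 and 107.4 CPM and K had 96.1, 96.2, 103.4 and 108.3 CPM. In both, at least 1 mouse reached the lowest WT value. The CK mice differed from WT by −0.28 ± 0.05 on the log2 scale (SE, adjusted p = 0.00107). For C the difference was −0.14 (adjusted p = 0.428), and for K it was also −0.14 (adjusted p = 0.165). It was called in all 17 fits that left out 1 mouse, and without WT replicate 4 the adjusted p was 0.00922.

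The peak at 146.9 kb (chr16:24134129-24137399) had the largest CPM of the window. WT mice had 107.1, 119.5, 127.0 and 149.7 CPM, and CK mice had 99.0, 92.3, 88.5, 101.6 and 114.0 CPM. The genotypes overlapped, since 1 CK mouse exceeded the lowest WT mouse. C mice had 109.3, 108.9, 117.4 and 126.4 CPM and K mice had 103.4, 115.5, 105.7 and 119.2 CPM, so both means lay between those of WT and CK. CK differed from WT by −0.35 ± 0.08 on the log2 scale (adjusted p = 0.00280). The values for C and K were −0.12 (adjusted p = 0.692) and −0.18 (adjusted p = 0.189). Without WT replicate 4 the CK value was −0.25 (adjusted p = 0.0245), and without WT replicate 3 it was also not called.

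At 166.0 kb (chr16:24154165-24155458) WT mice had 23.3, 24.6, 24.7 and 28.5 CPM and CK mice had 21.7, 18.9, 19.6, 18.5 and 20.5 CPM. The CK mice all lay below the WT mice, and the fall was −0.35 ± 0.07 on the log2 scale (adjusted p = 0.00152). At 181.1 kb (chr16:24169718-24170226) WT mice had 7.24, 9.35, 11.5 and 14.9 CPM and CK mice had 6.597, 6.35, 5.82, 7.47 and 8.99 CPM. Here the groups overlapped and WT spread widely, and the log2 difference was −0.61 ± 0.15 (adjusted p = 0.00829). The peak at 80.0 kb (chr16:24068279-24069460, intergenic) is weak, with 44 to 53 fragments in the WT libraries. WT mice had 2.45, 2.30, 2.48 and 2.77 CPM and CK mice had 1.62, 1.45, 1.75, 1.79 and 1.79 CPM, without overlap. Its log2 difference was −0.57 ± 0.14 (adjusted p = 0.00918, and 0.0257 by DESeq2). Without WT replicate 4 the adjusted p was 0.0124 at 166.0 kb, 0.0720 at 181.1 kb and 0.0413 at 80.0 kb, none of them called. With normalization in bins of GC content these 3 were not called either (0.0155, 0.0183 and 0.0161), while the peaks at 219.4 and 146.9 kb were (0.00357 and 0.00779).

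**Figure D2:**
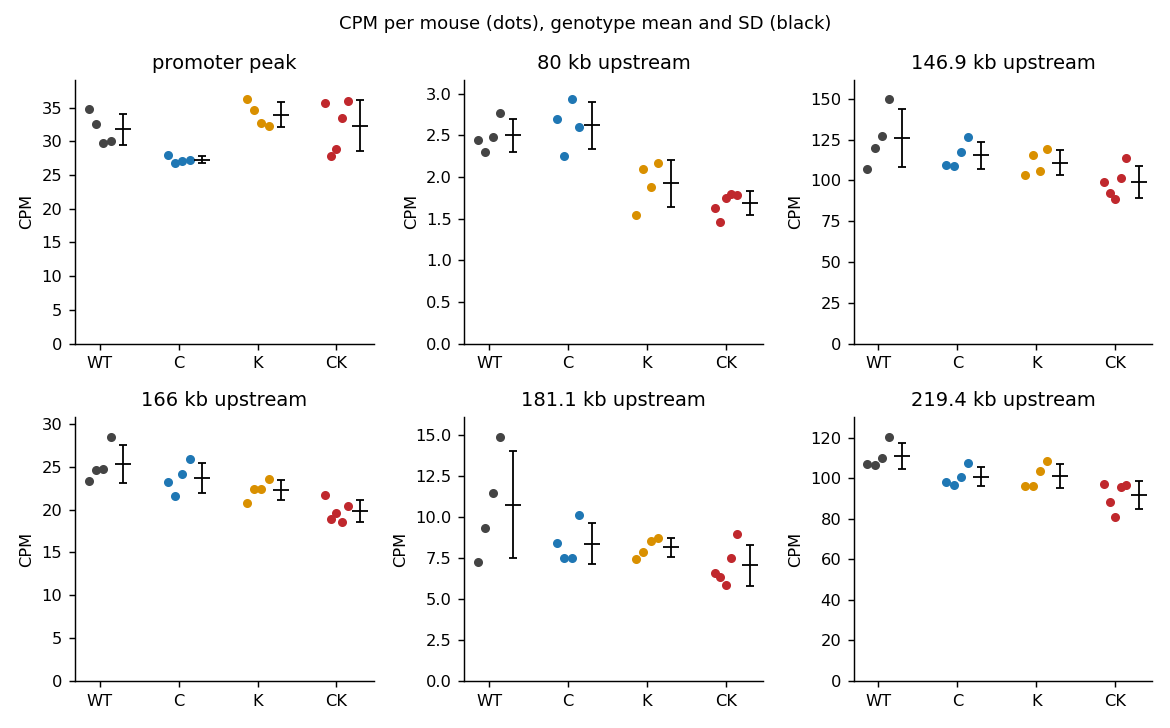
CPM of the promoter peak and of the 5 peaks called lower in CK, for each mouse (dots, colored by genotype) with the genotype mean and SD in black. Axes start at 0, and n is 4 for WT, C and K and 5 for CK. At 219.4, 166.0 and 80.0 kb every CK mouse lies below every WT mouse, whereas at the promoter the CK mice span 27.8 to 35.95 CPM.

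The members nearest the threshold were the peaks at 181.1 and 80.0 kb just inside it, and the peak at 212.7 kb (adjusted p = 0.0135) and the intronic peak at chr16:23983905-23987039 (adjusted p = 0.0201) just outside. The 212.7 kb peak had 51.9, 51.3, 53.5 and 62.0 CPM in WT and 46.1, 50.3, 46.004, 42.9 and 49.0 CPM in CK. The intronic peak had 59.3, 61.9, 63.9 and 64.6 CPM in WT mice and 58.0, 59.5, 55.7 and 60.96 in C mice. K mice had 51.6, 55.6, 56.8 and 55.1 CPM there and CK mice had 57.2, 57.8, 54.9, 56.1 and 56.1 CPM. Both had every CK mouse below every WT mouse. In all, 7 of 46 members had every CK mouse below every WT mouse, against 6.39% of all peaks, and 1 had every CK mouse above, at 271.2 kb (1.28, 1.51, 1.12 and 1.44 CPM in WT and 1.53, 1.56, 2.32, 2.24 and 2.30 in CK, adjusted p = 0.0404), against 6.59%.

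Other named members did not pass the test in CK. The peak at 216.9 kb, the neighbor of that at 219.4 kb, had 23.6 ± 1.81 CPM (SD, n = 5) in CK and 24.9 ± 3.19 (n = 4) in WT (log2 difference −0.08 ± 0.10, adjusted p = 0.681). That at 162.9 kb had 68.9 ± 4.32 CPM in CK and 78.7 ± 3.03 in WT (−0.19 ± 0.06, adjusted p = 0.0237). Near the gene, the peak at 4.8 kb had 27.7 ± 2.07 CPM in CK and 26.5 ± 0.834 in WT (adjusted p = 0.653), and the peak at 87.8 kb had 15.1 ± 0.457 and 15.7 ± 0.965 (adjusted p = 0.683). The intronic peak at chr16:23981407-23983067 had 22.7 ± 1.79 and 21.9 ± 2.22 CPM (adjusted p = 0.693). The downstream peaks at chr16:23958564-23959366 and chr16:23962471-23964789 had adjusted p = 0.773 and 0.425.

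**Figure D3:**
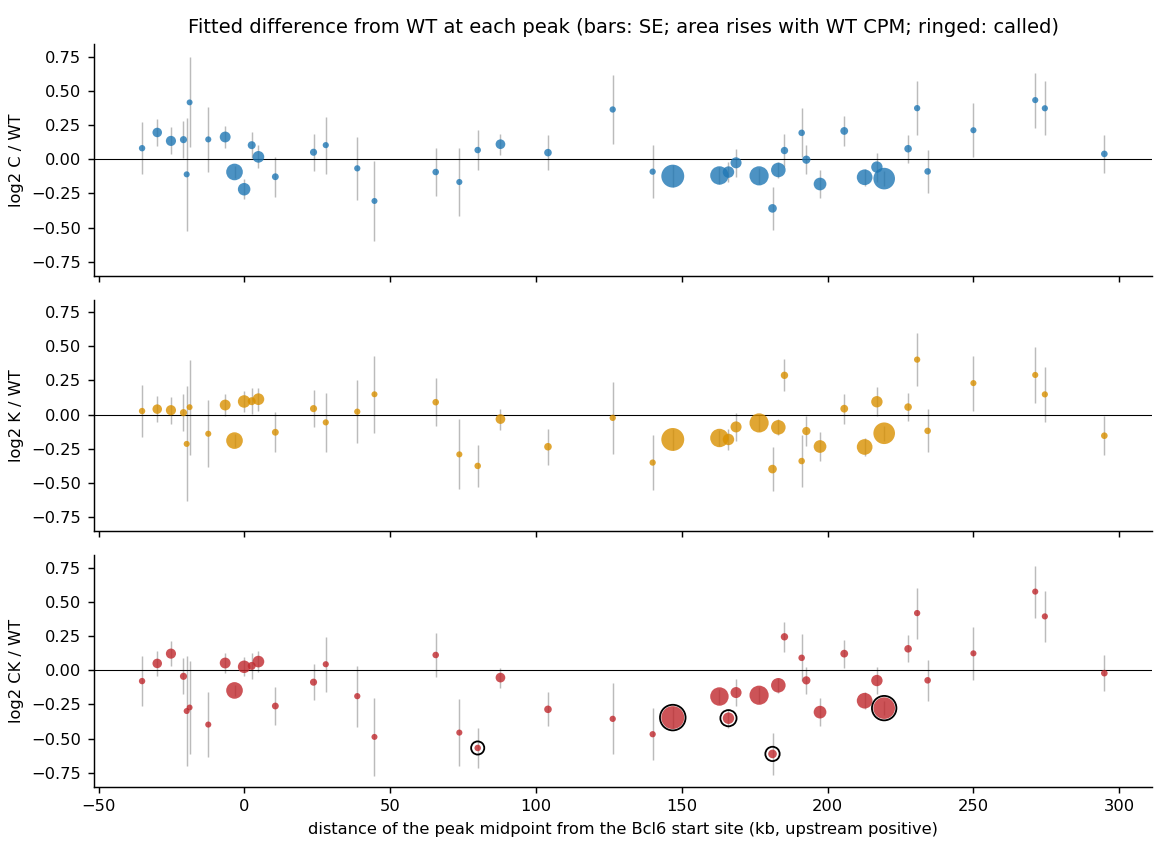
Fitted log2 difference from WT in C, K and CK (panels from top to bottom) for each of the 46 peaks, against distance from the Bcl6 TSS in kb, with SE bars and point areas that rise with WT CPM. The 5 ringed CK points are those called at an adjusted p under 0.01, from −0.28 at 219.4 kb to −0.61 at 181.1 kb.

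Neither single mutant had a called member. In C, 0 of 46 were called (edgeR, 0.160% of all peaks called in either direction), 7 (15.2%) had an unadjusted p under 0.05, against 8.90% of all peaks, and DESeq2 called 0. In K, 0 of 46 were called (1.48% of all peaks), 10 (21.7%) had an unadjusted p under 0.05, against 20.6% of all peaks, and DESeq2 called 1, the intronic peak at chr16:23983905-23987039 (log2 difference −0.19, adjusted p = 0.0150 in edgeR and 0.00408 in DESeq2). The median log2 difference was 0.03 in C and −0.04 in K. At the 5 peaks called in CK, C differed from WT by between −0.36 and 0.07, and K by between −0.40 and −0.14.

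The direct comparisons between mutants gave 1 call. Against C, CK was lower at 80.0 kb (−0.63 ± 0.14, edgeR adjusted p = 0.00952), where C mice had 2.69, 2.26, 2.93 and 2.60 CPM and all CK mice lay below them. The share of all peaks with such a gap between CK and C was not counted. The call was 1 of 46 members against 0.770% of all peaks called lower, DESeq2 gave an adjusted p of 0.0150, and 10 members had an unadjusted p under 0.05 (21.7%, against 21.2% of all peaks). Between CK and K, 0 members were called by edgeR or DESeq2 (0.00916% of all peaks), with 6 at an unadjusted p under 0.05 (13.04%, against 7.35% of all peaks). At 219.4 kb the CK-to-K difference was −0.14 ± 0.05 (adjusted p = 0.521). Between K and C, 0 members were called by edgeR (0.788% of all peaks) and 1 by DESeq2, the promoter peak, with 5 at an unadjusted p under 0.05 (10.9%, against 17.9% of all peaks). For CK against the C and K changes added together, 0 members were called by edgeR or DESeq2 (0.0107% of all peaks), with 1 at an unadjusted p under 0.05 (2.17%, against 3.73% of all peaks). At 219.4 kb that difference was 0.00 ± 0.08 and at 146.9 kb it was −0.04 ± 0.11 on the log2 scale, both with an adjusted p of 1. The comparisons with WT share the same 4 WT mice.

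Summed over segments, the lower level in CK lay mostly in the 2 far upstream segments. Over the whole window WT mice had 846, 873, 881 and 993 CPM and C mice had 817, 809, 869 and 916 CPM. K mice had 798, 810.0, 848 and 890.5 CPM and CK mice had 804, 787, 759, 795 and 847 CPM. By their means the order was WT (898 ± 64.8), C (853 ± 50.0), K (837 ± 41.8) and CK (798.5 ± 31.9), and each neighboring pair in this order differed by less than the larger of its SDs. Relative to WT the log2 ratio of means was −0.07 for C, −0.10 for K and −0.17 for CK, or −0.02, −0.05 and −0.12 without WT replicate 4. From 100 to 200 kb upstream, WT had 455 ± 48.2 CPM and CK 386 ± 23.9, a log2 ratio of −0.24, or −0.16 without WT replicate 4. From 200 to 300 kb the values were 215.5 ± 14.1 and 190.0 ± 7.75 (−0.18, or −0.13 without that mouse). Within 100 kb upstream they were 68.9 ± 1.56 and 67.4 ± 2.09 (−0.03). The 6 gene body peaks other than the promoter gave 92.0 ± 5.02 and 86.0 ± 3.06 (−0.10), with K at 85.2 ± 2.13, and the 3 downstream peaks 34.9 ± 1.46 and 36.9 ± 2.77 (0.08). These sums were not tested.

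**Figure D4:**
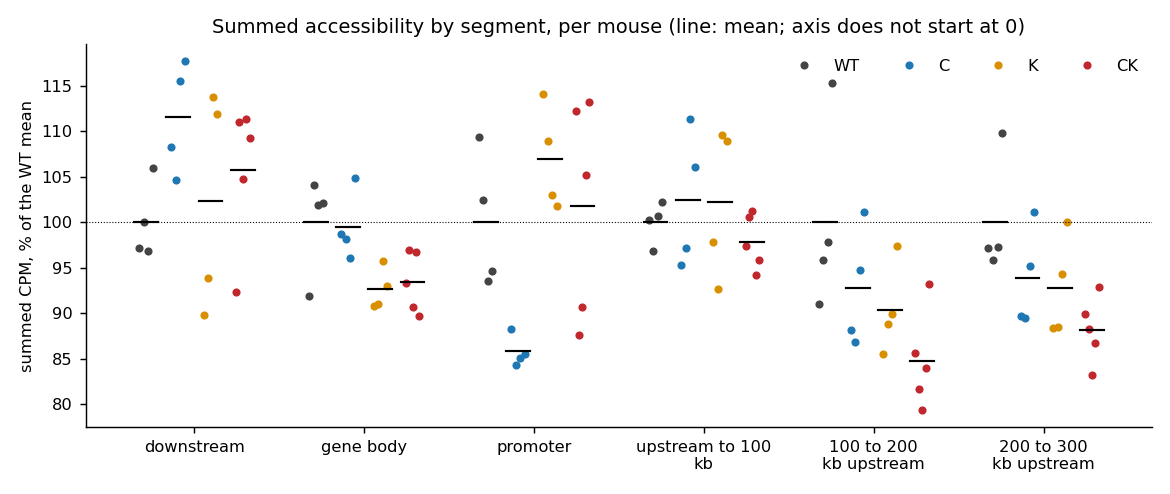
Summed CPM of the peaks in each segment for every mouse, as percent of the WT mean, by genotype, with the mean as a line (n is 4 for WT, C and K and 5 for CK). In the 2 far upstream segments the CK means lie below the WT, C and K means, and WT replicate 4 is the highest point.

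Within the libraries with Y signal (2 WT, 2 CK) the log2 ratio of CK to WT for the window was −0.10, and within those without (2 WT, 3 CK) it was −0.23. The ratio was below 0 in both classes at each of the 5 called peaks: −0.15 and −0.38 at 219.4 kb, −0.18 and −0.49 at 146.9 kb, −0.25 and −0.44 at 166.0 kb, −0.24 and −0.90 at 181.1 kb, and −0.47 and −0.66 at 80.0 kb. WT replicate 4 is in the class without Y signal. The 5 peaks were picked because CK was lower over these same libraries, so the sign within each class is a description and no separate test. With Y signal as a covariate in the fit, all 5 peaks were called, with adjusted p up to 0.00787.

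Motif matches were counted in the central 300 bases of each peak on both strands and are descriptions only. AP-1 (TGANTCA) matched in 8 of 46 members (17.4%) and 8.92% of all peaks, and the E-box CAGGTG in 14 (30.4%) and 24.1%. The STAT pattern matched in 6 members (13.04%) and 8.22% of all peaks, a pattern that includes every BCL6 match. ETS-IRF (GGAANNGAA) matched in 6 members (13.04%) and 10.95%, RUNX in 4 (8.70%) and 8.46%, PU.1 (GAGGAAGT) in 3 (6.52%) and 5.84%, and the octamer in 1 (2.17%) and 4.17%. EBF matched in 1 member (2.17%) and 1.40%. The BCL6 pattern matched in 1 member, the promoter, and 1.61% of all peaks. NF-kB (GGGANTTCC) and MEF2 (CTAAAAATA) matched in 0 members, against 1.45% and 0.742% of all peaks. Over whole peaks, whose lengths differ, AP-1 matched in 20 members (43.5%) and 26.2% of all peaks, ETS-IRF in 20 (43.5%) and 30.4%, and RUNX in 16 (34.8%) and 24.3%. The octamer matched in 2 (4.35%) and 11.1%, the E-box in 27 (58.7%) and 55.1%, STAT in 14 (30.4%) and 25.4%, and PU.1 in 8 (17.4%) and 14.2%. BCL6 matched in 3 (6.52%) and 5.71%, NF-kB in 2 (4.35%) and 4.90%, EBF in 2 (4.35%) and 4.37%, and MEF2 in 0 members and 2.61%.

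Genes that work with BCL6 were read at their promoter peaks, with the same test. Among 12 promoter peaks of 10 corepressor partner genes, CK against WT called 1 higher and 1 lower (3.54% and 3.30% of all peaks). One of the 2 promoter peaks of Bcor, a subunit of a BCL6 corepressor complex (chrX:12158300-12160619), rose from 6.56 to 9.54 CPM (log2 difference 0.54 ± 0.11, adjusted p = 0.00147), and 1 of the 2 of Tbl1xr1, a subunit of corepressor complexes (chr3:22113271-22116714), fell from 48.9 to 41.1 CPM (−0.25 ± 0.06, adjusted p = 0.00639). Among 25 promoter peaks of 18 genes for transcription factors of GC B cells, 1 was higher and 1 lower in CK. One of the 2 promoter peaks of Stat5b (chr11:100849666-100851462) rose from 27.5 to 37.8 CPM (0.46 ± 0.12, adjusted p = 0.00874), and 1 of the 2 of Tcf12, which encodes an E-protein (chr9:71895765-71896728), fell from 22.3 to 17.6 CPM (−0.34 ± 0.07, adjusted p = 0.000915). Among 26 promoter peaks of 23 of 24 target genes (Cd80 had none), Bcl2, an anti-apoptotic gene, rose from 30.4 to 40.3 CPM (0.41 ± 0.08, adjusted p = 0.000738) and 0 were lower. The medians over these lists were 0.04, −0.04 and 0.03, against 0.00 over all peaks. The other promoter peaks of Bcor, Tbl1xr1, Stat5b and Tcf12 had log2 differences of −0.06, 0.14, −0.21 and 0.13, none of them called. In the single mutants, 0 promoter peaks of the 3 lists were called by edgeR or DESeq2. Of all peaks, edgeR called 0.160% in C and 1.48% in K, and DESeq2 0.275% and 2.66%. At an unadjusted p under 0.05 in edgeR there were 1, 3 and 0 (C) and 3, 4 and 6 (K), against 8.90% and 20.6% of all peaks. These small counts are descriptions.

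Over the 17 libraries, the 5 protein-coding genes of 13542 whose promoter accessibility (log2 CPM) was most like that of Bcl6 were Rab43 (Pearson r = 0.943, Spearman rho = 0.956), Mex3b (0.934 and 0.900), Mtfr1 (0.932 and 0.926), Otud1 (0.923 and 0.936) and Fam160b1 (0.922 and 0.900). Without the 2 libraries farthest from the median of Bcl6, r lay between 0.903 and 0.939. All values share the libraries and their normalization, and the genes were picked for their r.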

How the data were processed

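ATAC-seq libraries were made by the authors from sorted GC B cells of 17 mice (1 library each), aligned to mm10 in the ATAC-seq pipeline of nf-core. The authors deposited counts of fragments per consensus peak, made with featureCounts 2.0.1 and without normalization. The 7 sorted CB and CC libraries were not analysed here. The counts were fitted in edgeR 4.0.16 (R 4.3.3; TMM, 1 coefficient per genotype, 17 libraries together) and contrasts were tested by quasi-likelihood, with p-values adjusted by Benjamini-Hochberg over all 65483 peaks and called under 0.01. Peaks with under 10 counts in all were to be removed, and 0 were. The code was tested on simulated data. DESeq2 1.42.0 was an alternative. Genes came from GENCODE M21 and letters from GRCm38. Members and lists were chosen with earlier results of these data known. Peaks named in full were the promoter peak, every member called in any of 7 contrasts, the 3 lowest unadjusted p in CK against WT, and the 2 highest in WT per kb in each segment, with the 2 members on either side of the threshold by value. Other named members are counts of 5 or fewer, chosen after their values were seen. Replicate numbers were checked for pairing: of 24 same-numbered pairs of libraries, 12 had a correlation of deviations above 0.1. The median r was 0.1 for same-numbered pairs (highest 0.224) and -0.00867 for other pairs, so libraries of the same number were slightly more alike. The labels do not say what the numbers share, so the main fit did not use them. A fit with the number as a block is given below. Alternatives covered scaling, filters, thresholds, covariates, windows and leaving out each mouse. The p-values set a difference between genotypes against the spread between mice, estimated from the 17 libraries together with information shared among peaks.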

Additional observations from a re-analysis of the deposited data

Results flagged for a closer look

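Dixon's test of the highest and lowest mouse was run on 88 groups of 4 or 5 mice, and chance flags about 1 in 20 groups. It set apart 3 values. WT replicate 4 had 237 CPM summed over 200 to 300 kb upstream, where the other WT mice had 206 to 210 CPM. WT replicate 4 also had 592 CPM in the largest joined region, where the others had 500.02 to 511 CPM. That region shares peaks with the 200 to 300 kb segment. K replicate 1 had 25.4 CPM at the intronic peak chr16:23981407-23983067, where the other K mice had 21.9 to 22.3 CPM.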

How the results depend on the processing

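The count of members called in CK against WT (5, with 3.30% of all peaks called lower) was 2 with GC content bins (3.38%), 3 in the fit of only the genotypes compared (2.83%), 11 at an adjusted p under 0.05 (10 lower, 7.54%) and 1 with a log2 fold change above log2(1.5) (1.36%). It was between 1 and 5 when single mice were left out (1 without WT replicate 4, with 1.47% of all peaks). The other 7 settings kept the count within 1.5 times of 5, and the named peaks reversed in none. For CK against C (1, with 0.770% of all peaks called lower), DESeq2 (1.45%), GC content bins (0.564%) and the fit of only the genotypes compared (0.605%) each gave 0, an adjusted p under 0.05 gave 3 (2.97%), and leaving out mice gave 0 to 1. For K against WT (0), DESeq2 gave 1 (2.66% of all peaks in either direction) and an adjusted p under 0.05 gave 2 (5.38%). For K against C (0), DESeq2 (1.78%), the fit of only the genotypes compared (0.673%) and an adjusted p under 0.05 (3.62%) each gave 1. With the replicate number as a block (replicate block), 8 members were called in CK against WT, 1 in K against WT, 2 in CK against C and 1 in K against C. More peaks were called over the whole table too, in either direction 10.1%, 3.28%, 3.93% and 2.15% in that order (5.25% lower in CK against WT). The numbers were not shown to pair mice. With the window ended 100 kb upstream, so that its sum is over the downstream, gene body, promoter and near upstream peaks together, the log2 ratio to WT was -0.0139 for K and -0.0314 for CK. With matches counted over whole peaks, 8 of 11 motif shares moved. Promoter peaks of the transcription factor list called in CK were 1 by DESeq2 and 4 at an adjusted p under 0.05, and of the target list 2 at an adjusted p under 0.05. DESeq2 called 8.05% of all peaks in either direction. At an adjusted p under 0.05, 7.54% of all peaks were lower, and the share called higher was not counted. The cause of these shifts was not tested. The count for CK against the C and K changes added together could not be refitted on only the genotypes compared. Weak members, with as few as 6 fragments per library, limit what small changes can be seen.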
